A study of Rattus norvegicus with 6 samples.

Results

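The values below are those of miR-31, measured through both arms of its precursor, rno-miR-31 and rno-miR-31* in the naming of the array, in tendon-derived stem cells of the rat (rTDSCs) with and without mechanical loading. Members were taken by name, and 2 of the 677 miRNAs on the array fit. They were chosen by their signals, because both arms were higher under loading in these same 6 arrays, so every value of the loading comparison for them is a description and carries no test. Cells of passage 3, isolated from patellar tendons of 8-week-old male Sprague Dawley rats, grew on collagen-coated flexible plates. In the loading group (n = 3) they were stretched along 1 axis by 10% at 0.5 Hz for 8 h per day over 7 days. The non-loading group (n = 3) stayed static on the same kind of plate for 7 days. The sources used here do not say how many rats gave the cells or whether the 3 samples of a group came from separate cultures, so the spread within a group may be technical.

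A miRNA precursor is a hairpin from which Dicer cuts a duplex of short strands, 1 from each arm. One strand, the guide, is usually kept in Argonaute and represses mRNAs that match its seed near the 5′ end, while the other, the passenger or star strand, is mostly degraded. miR-31 is known as a miRNA of mesenchymal and epithelial cells. In osteoblast-lineage cells it is known to repress Osterix, a transcription factor of bone formation.

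The sequences show the strands that the probe sets were taken, by name, to read. They are those of RefSeq (build GRCr8, an assembly newer than the rn4 build of the array), with the seed, bases 2 to 8, in capitals. The files hold no probe sequences, and the starred name was read as the 3′ arm, as in miRBase.

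rno-miR-31, now rno-miR-31a-5p: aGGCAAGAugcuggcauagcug

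rno-miR-31*, now rno-miR-31a-3p: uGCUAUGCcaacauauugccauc

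Mir31 hairpin with both arms in capitals: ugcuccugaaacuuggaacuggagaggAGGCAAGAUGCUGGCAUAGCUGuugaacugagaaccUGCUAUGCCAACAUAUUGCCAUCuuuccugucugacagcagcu

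The 5p strand had 22 bases, of which 54.5% were G or C, and the 3p strand had 23 bases, of which 43.5% were. In the hairpin of 106 bases the arms lay at bases 28 to 49 and 64 to 86. The predicted fold (RNAfold 2.7.2, -45.9 kcal/mol) paired 17 bases of the 5p arm with the 3p arm. Both seeds were unique, each being held by 1 of the 693 mature names in the table, so neither arm had a family member on this count. The longest run that the arms shared was 4 bases. Mir31 lies on the minus strand at chr5:108714849-108714954 (GRCr8), within the span of a long non-coding RNA gene, LOC130062807.

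Opposite Mir31, on the plus strand, the table holds Mir3554, whose mature strand is complementary to the 5p strand over all of its 19 bases, which are in capitals here.

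rno-miR-31b, on the array as rno-miR-3554: CUAUGCCAGCAUCUUGCCU

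The antisense strand and the 3p strand shared a run of 8 bases. None of the 120 spots of the array's 2 rno-miR-3554 probes was well above background. Its array means lay between -2.20 and 0.186 intensity units, so the antisense strand was not detected in either group.

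Each sample was hybridised to 1 one-colour array, and all 6 arrays lay on 1 slide. The scale below divides a signal by the 75th percentile of the array's detected probes, which lay between 262.6 and 362.2 intensity units. A value of 1 on this scale, or 0 after log2, is that percentile. The scanner software detected 140 to 176 miRNAs on the non-loading arrays and 145 to 186 on the loading arrays. Of the 6 mesenchymal miRNAs looked at as markers, 5 were detected on all 6 arrays and miR-145 on 3. Their summed signal was 107.9 to 117.6 in the non-loading group and 116.4 to 120.3 in the loading group. Most of it was miR-21, with means of 63.7 and 70.7 in that order. miR-199a-3p was at 23.3 and 23.6, and miR-214 at 18.0 and 17.4. Of the 8 epithelial, 4 skeletal muscle and 2 neural markers, 0 were detected on any array. Among the 5 blood markers miR-223 was detected, on 5 arrays, with summed signals of 0.0448 to 0.0892 and 0.0772 to 0.0947 in the same order. Of the 2 endothelial markers miR-126 was detected on all 6 arrays, and their summed signals were 0.0277 to 0.0524 and 0.0395 to 0.0573. The part of these cell types in the miR-31 values was not tested.

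rno-miR-31 was detected on all 6 arrays. Its signal was 2.06, 2.15 and 2.06 times the 75th percentile on non-loading arrays 1, 2 and 3, and 2.39, 2.34 and 2.45 times it on loading arrays 1, 2 and 3. The 3 loading arrays all lay above the 3 non-loading arrays, and the groups did not overlap. They overlapped with normexp background correction, without scaling and when the 75th percentile was taken over all probes. The mean log2 signal was 1.06 ± 0.04 (SD, n = 3) in the non-loading group and 1.26 ± 0.03 (SD, n = 3) in the loading group. The log2 change was 0.20 with a standard error of 0.07 in limma, a signal 1.15 times the non-loading one. The spread within the groups was small, with a pooled SD of 0.0344, and only 3 of the 148 miRNAs tested had a smaller one. It was about the size of the error that the spots of 1 array allow, which was 0.0244 to 0.0642 on the log2 scale.

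rno-miR-31*, the passenger strand by name, was also detected on all 6 arrays. Its signal was 14.6%, 17.8% and 13.6% of the 75th percentile on non-loading arrays 1, 2 and 3, and 25.3%, 17.5% and 22.4% on loading arrays 1, 2 and 3. Loading arrays 1 and 3 lay above all non-loading arrays, but loading array 2 lay just under non-loading array 2, so the groups overlapped. They did not overlap with outlier spots kept, after centring on the median of the tested miRNAs, or after normexp with outlying background values replaced. The mean log2 signal was -2.72 ± 0.20 (SD, n = 3) in the non-loading group and -2.22 ± 0.27 (SD, n = 3) in the loading group. The log2 change was 0.50 with a standard error of 0.17 in limma, a signal 1.41 times the non-loading one. Unlike for the other arm, the pooled SD of 0.237 was well above the spot error, which was 0.0353 to 0.107. That pooled SD was larger than those of 111 of the 148 miRNAs tested, whose median was 0.155.

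**Figure D1:**
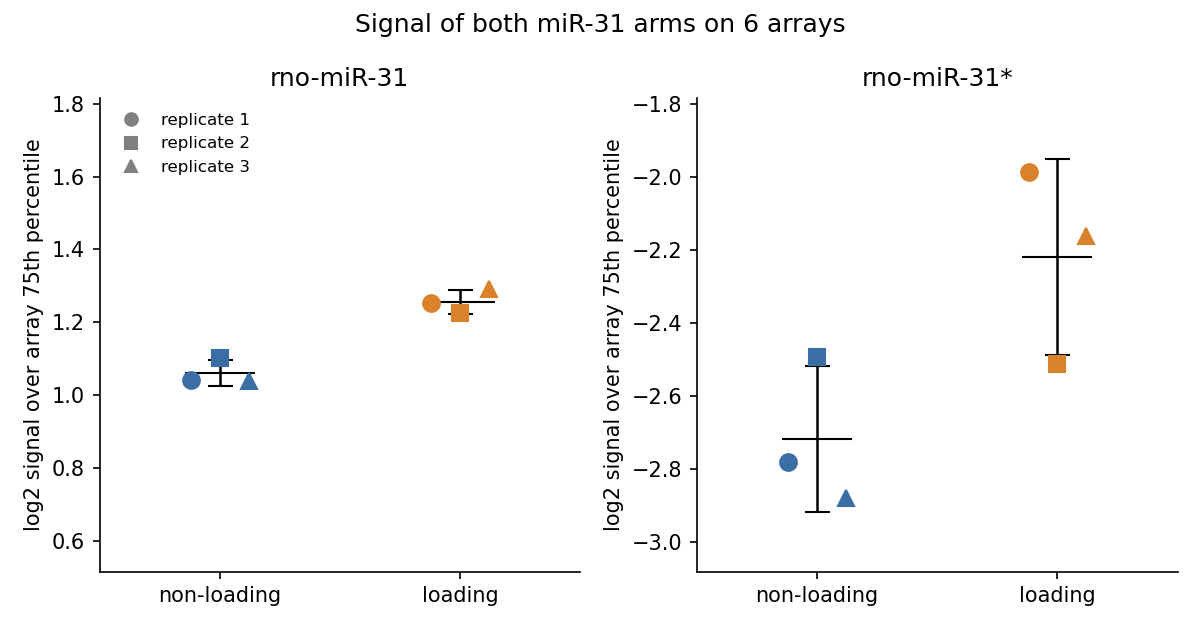
Log2 signal over the array's 75th percentile (y axis) of rno-miR-31 (left) and rno-miR-31* (right) on each array, by group (x axis), with replicates as symbols and the mean ± SD (n = 3) as bars. Both panels span the same height of the log2 scale. The miR-31 groups stand apart within a small spread, while the miR-31* groups differ more and overlap through loading replicate 2 at -2.51 and non-loading replicate 2 at -2.49.

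On the main scale the groups thus did not overlap for 1 of the 2 arms. This was so for 0 of the 2 in the 3 settings in which the miR-31 groups overlapped, and for both in the 3 in which the miR-31* groups did not. Among all 148 miRNAs tested, 19 were higher under loading with no overlap, or 12.8%, and 4 were lower with no overlap, or 2.7%. After quantile normalization these counts were 13 and 14, and without scaling they were 6 and 5. The mean of both arms was higher under loading, as was that of 99 of the 148, or 66.9%. The median log2 change over all 148 was 0.06, so miR-31 lay 0.13 and miR-31* 0.43 above it. From the highest change down, miR-31* was at rank 4 and miR-31 at rank 30 of 148. In limma, 0 of the 148 miRNAs (0.0%) had an adjusted p under 0.05, while 14 (9.46%) had an unadjusted p under 0.05 and 2 (1.35%) passed after adjustment in the study's own test, Newman–Keuls.

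Each arm was read by 2 probes of 10 spots per array. All 60 spots of each miR-31 probe were well above background. The first miR-31 probe gave 151% ± 4.80 (SD, n = 3) of the 75th percentile in the non-loading group and 174% ± 4.42 (SD, n = 3) in the loading group. The second gave 57.9% ± 1.83 and 65.1% ± 1.40 in the same order. The coefficient of variation over the spots of an array was 6.22% to 17.8% for the first probe and 4.45% to 22.4% for the second. Both miR-31 probes were higher on every loading array than on any non-loading array, with log2 changes of 0.21 and 0.17.

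The miR-31* probes were dim. The first gave 4.50% ± 0.639 (SD, n = 3) of the 75th percentile in the non-loading group and 6.65% ± 1.22 (SD, n = 3) in the loading group. Its array means were 11.8 to 24.4 intensity units, where the negative-control spots had an SD of 1.80 to 2.28. By the scanner software's call, 17 of its 30 spots were well above background in the non-loading group and 25 of 30 in the loading group. By array these were 6, 9 and 2 of 10 spots on non-loading arrays 1, 2 and 3, and 10, 5 and 10 of 10 on loading arrays 1, 2 and 3. The second probe gave 10.8% ± 1.55 and 15.1% ± 2.70, and all of its 60 spots were well above background. Over the spots of an array the coefficient of variation was 16.0% to 32.5% for the first miR-31* probe and 5.88% to 28.8% for the second, and for both it was highest on loading array 2. Outlier flags removed 2 and 5 of the 60 spots of these probes, against 1 and 2 of 60 for the miR-31 probes.

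On the miR-31* probes the log2 changes were 0.55 for the first and 0.48 for the second. The groups were apart by 0.017 on the first probe and overlapped on the second, where loading array 2 was at 0.122 and non-loading array 2 at 0.125 times the 75th percentile. The ratio of the second probe to the first stayed within a range of 0.14 on the log2 scale for miR-31*, with an SD of 0.0532 against pooled SDs of 0.242 and 0.236 for its probes, so the spread between miR-31* arrays was present in both. For miR-31 the range was 0.13 and the SD of 0.0484 was above the pooled SDs of its probes, 0.0414 and 0.0392, so no shared movement within the groups can be read from them.

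**Figure D2:**
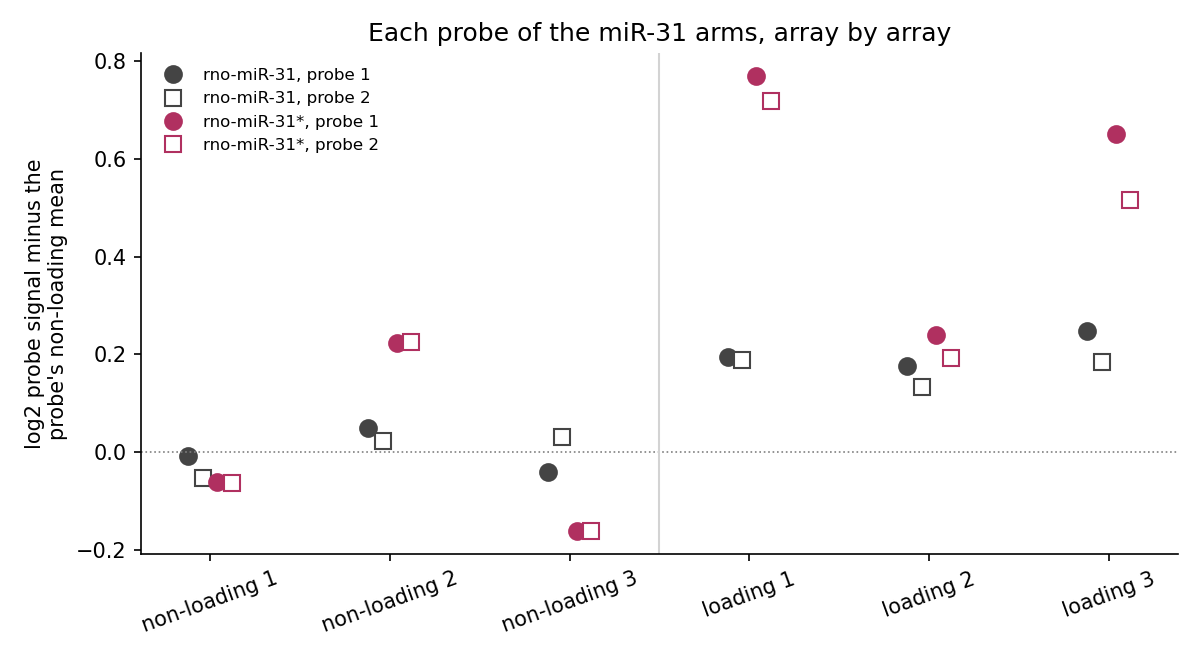
Log2 signal of each of the 4 probes minus that probe's own mean over the non-loading arrays (y axis), on each of the 6 arrays (x axis); black is miR-31, red is miR-31*, filled circles are the first and open squares the second probe. The miR-31* probes sit close together on each array against their spread over the arrays, and loading replicate 2 is the loading array where the miR-31* probes are lowest.

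The ratio of the arms, log2 of miR-31* over miR-31, was followed from array to array. Its own size was not read, because probes of different sequence differ in brightness. Relative to the non-loading mean, it was -0.04, 0.18 and -0.14 on non-loading arrays 1, 2 and 3, and 0.54, 0.04 and 0.33 on loading arrays 1, 2 and 3. Loading arrays 1 and 3 had the highest ratios, and loading array 2 lay within the non-loading range. The mean was higher by 0.30 under loading, with an SD of 0.17 in the non-loading group and 0.25 in the loading group (n = 3 each), so the shift was larger than either SD but the groups overlapped. Without loading replicate 1 it was 0.18.

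The higher miR-31* arrays were also those on which more miRNAs were detected. In the non-loading group, arrays 3, 1 and 2, from the lowest miR-31* signal to the highest, had 140, 153 and 176 detected miRNAs. In the loading group, arrays 2, 3 and 1 had 145, 178 and 186 in that order. For the 48 dimmest of the other tested miRNAs, the median centred log2 signal was 0.09, 0.08 and -0.30 on non-loading arrays 1, 2 and 3 and 0.12, -0.01 and 0.15 on loading arrays 1, 2 and 3. It was lowest on the array where miR-31* was lowest, non-loading array 3, and lower on loading array 2 than on the other loading arrays. miR-31* was itself brighter than these, and its group means of -2.72 and -2.22 fell among the 48 miRNAs next in brightness (-3.19 to -1.39). For those the median was 0.03, 0.03 and -0.15 on non-loading arrays 1, 2 and 3. On loading arrays 1, 2 and 3 it was 0.02, -0.02 and 0.04, a smaller spread than in the dimmest 48. The part of array sensitivity in the miR-31* values was not tested.

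Position on the slide was uneven between the groups, with the non-loading arrays and loading array 1 in row 1 and loading arrays 2 and 3 in row 2. Within row 1, loading array 1 lay 0.19 above the non-loading mean for miR-31 and 0.73 above it for miR-31* on the log2 scale, with 1 array on the loading side. Columns 1 and 2 each held 1 array of both groups. For miR-31 the loading array was higher by 0.18 in column 1 and by 0.19 in column 2. For miR-31* it was higher by 0.27 and 0.33. Non-loading array 3 was alone in column 3 and loading array 1 alone in column 4. A fit with columns as blocks thus rests only on the differences within columns 1 and 2. In that fit the log2 change was 0.19 for miR-31, 0.30 for miR-31* and 0.11 for the ratio of the arms.

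The values also depended on background correction and scaling. With normexp background correction, which adds an offset of 50 intensity units, the log2 change of miR-31* was -0.36 and that of miR-31 0.13, while the median of all tested miRNAs was -0.45. When outlying background values were first replaced, an alternative added once the data had been seen, both arms were higher, by 0.17 for miR-31 and 0.18 for miR-31*. Neither arm's groups overlapped in this setting, which adds the same offset. Before any offset, the array means of the miR-31* probes were 11.8 to 24.4 and 28.2 to 56.3 intensity units. Those of the miR-31 probes were 413 to 581 and 154 to 214. An offset weighs more on the log2 change of a dim signal, so the like changes do not show that the arms moved alike. The cause of the differences between settings was not tested. The log2 change of miR-31 was 0.084 after quantile normalization and 0.042 when the 75th percentile was taken over all probes, where the median of all tested miRNAs was 0.0028 and -0.09.

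**Figure D3:**
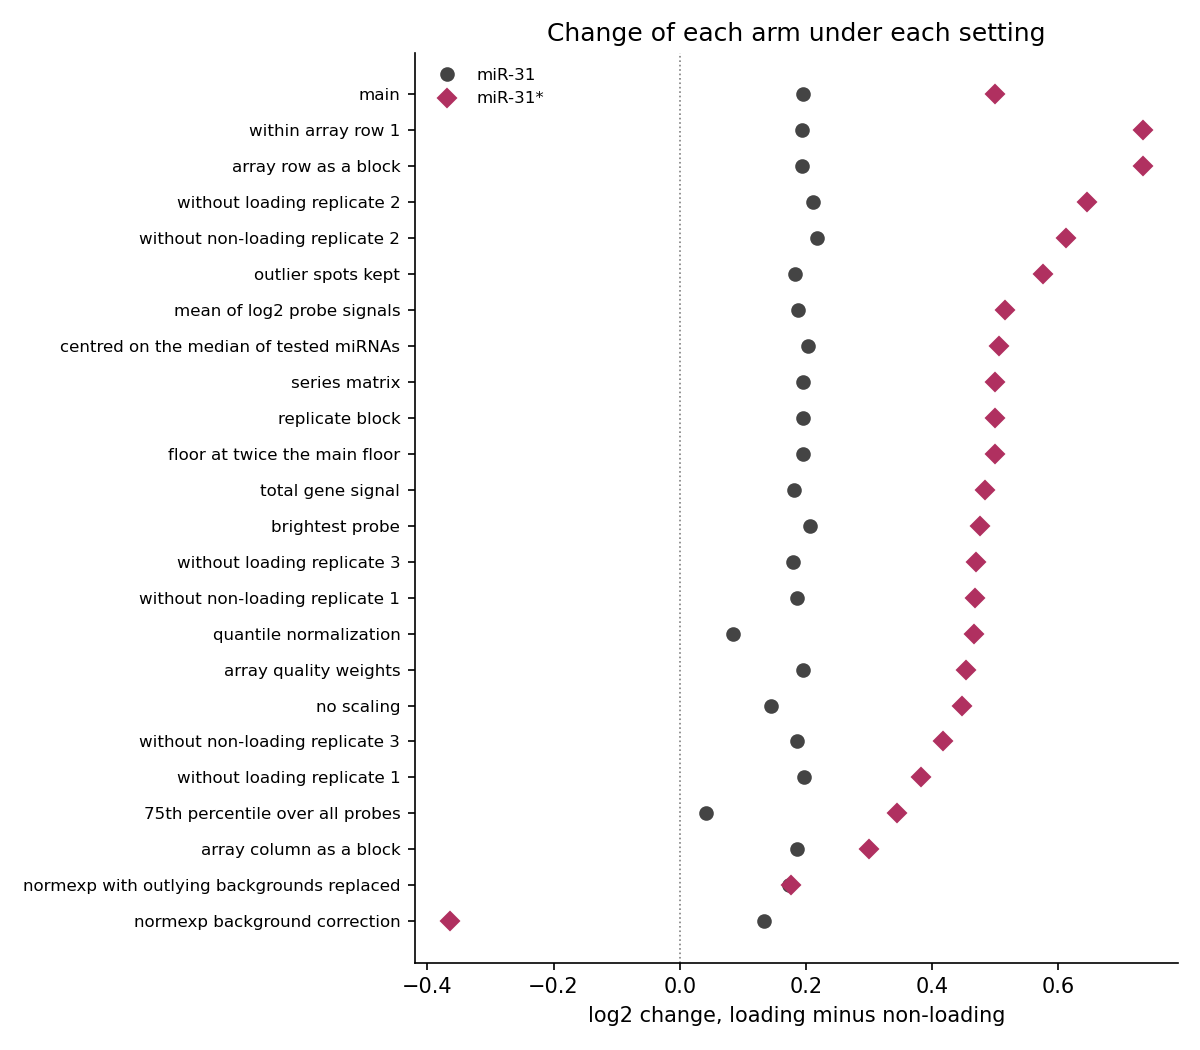
Log2 change from non-loading to loading (x axis) of miR-31 (black circles) and miR-31* (red diamonds) under the main setting, the alternatives and each array left out (y axis, ordered by the value of miR-31*). miR-31 is above 0 under every setting drawn, between 0.042 and 0.22, while miR-31* runs from -0.36 with normexp to 0.73 within array row 1 or with the row as a block.

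Arms of the same precursor could be compared for 8 of the 259 arm pairs on the array, those with both arms tested. For 3 of the other 7 pairs both arms were higher under loading, namely miR-125a, miR-455 and miR-199a. For 0 of the 7 were both arms higher with no overlap of the groups, and on the main scale miR-31 did not meet this either. As with miR-31, the groups of miR-125a-5p and miR-455 did not overlap, while those of their other arms did. Of all 148 miRNAs tested, 66.9% had a higher mean under loading and 12.8% were higher with no overlap. The change of the arm ratio was 0.07 to 0.14 in size for the other 7 pairs, with a median of 0.0802, against 0.30 for miR-31. The shift in ratio for miR-31 was the largest of the 8, a description without a test. The other 2 with the largest shifts were miR-140, known from cartilage, where the star strand was lower by 0.08 and the other arm higher by 0.06, and miR-652, with log2 changes of -0.02 for miR-652 and 0.08 for miR-652*. The 3 smallest shifts, 0.0753, 0.0690 and 0.0661, were those of miR-345, miR-324 and miR-199a. The pooled SD of the ratio was 0.21 for miR-31, and its median over the other 7 was 0.24. Over these 7 it ran from 0.0570 for miR-455, whose ratio changed by -0.0802, to 0.661 for miR-345. The order of the pairs by size of shift takes no account of this spread. After normexp with outlying background values replaced, the change of the miR-31 ratio was 0.0025, in a setting whose added offset of 50 intensity units weighs more on the dimmer arm.

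**Figure D4:**
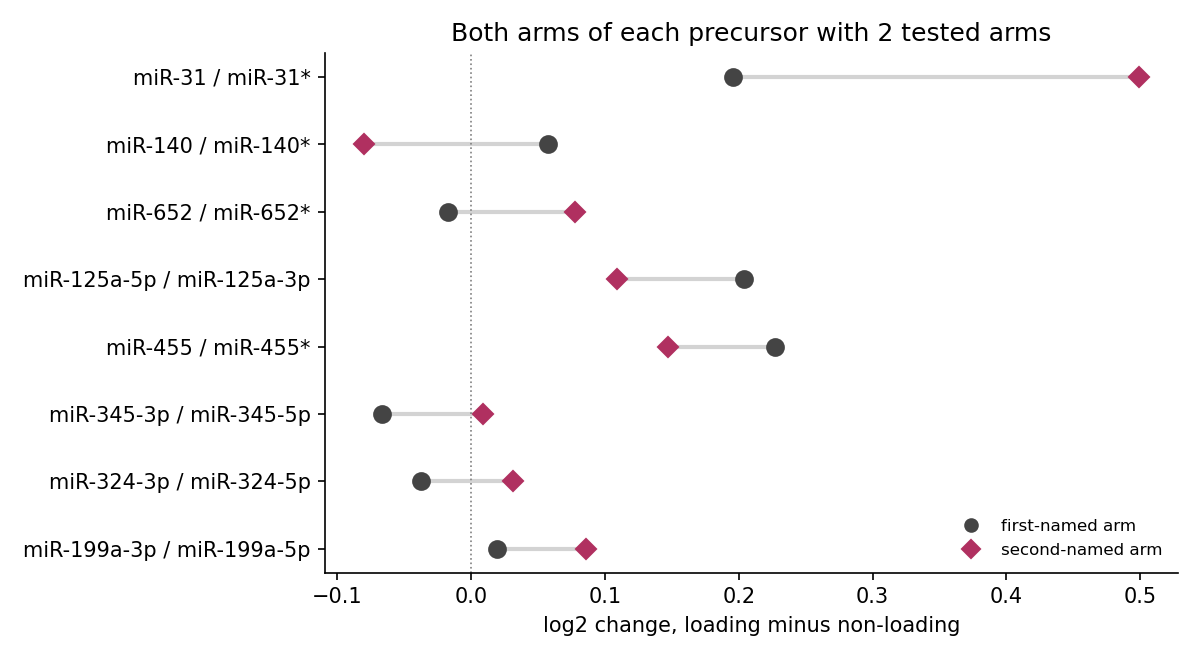
Log2 change from non-loading to loading (x axis) of both arms of the 8 precursors with 2 tested arms (y axis), where the grey line is the change of the arm ratio. The miR-31 pair has the longest line, from 0.20 to 0.50, and the other lines are 0.07 to 0.14 long.

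Of the 240 starred names on the array, 12 were tested, and 7 of these had a higher mean under loading, where 66.9% of all 148 did. The median log2 change of the 12 was 0.09, and miR-31* had the highest. For 0 of the 12 were the groups without overlap and higher under loading, against 12.8% of all 148.

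The array profile of each arm was set beside those of all other tested miRNAs by the root mean square difference of log2 values over the 6 arrays, each miRNA centred on its own mean. The 4 profiles most like that of miR-31 were those of miR-322 (0.0339), miR-27a (0.0470), miR-455 (0.0498) and miR-24 (0.0510), against a median of 0.171 for all other tested miRNAs. Their log2 changes were 0.20, 0.17, 0.23 and 0.20, and for each of them the groups did not overlap, against 12.8% of all 148. Both follow from the choice of these 4 by a profile that holds the loading difference, so nothing is read from them. In likeness to miR-31, miR-31* was at rank 109, with a difference of 0.230. The profile of miR-31* had no such close match. The nearest were miR-425 (0.157), miR-872 (0.164), miR-2985 (0.170) and miR-222 (0.172), with log2 changes of 0.25, 0.34, 0.23 and 0.30, against a median of 0.303 for all others. In likeness to miR-31*, miR-31 was at rank 23. By this measure the arms of 1 precursor were not each other's nearest profile. The measure does not scale for spread, and the pooled SD was 0.0344 for miR-31 and 0.237 for miR-31*. These ranks thus depend on the size of the spread and cannot show whether the arms moved together.

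The other miRNAs looked at were those known to act on Runx2, the master transcription factor of osteoblasts, and those known to respond to inflammatory cytokines. Of 11 Runx2-targeting miRNAs, 4 were tested, and 0 passed an adjusted p of 0.05 in either direction in limma, nor did any have an unadjusted p under 0.05 or pass in the study's own test after adjustment. The shares over all 148 were 0.0%, 9.46% and 1.35% in that order, so a count of 0 among 4 is near the background. Their median log2 change was 0.06, and that of all tested miRNAs was also 0.06. The log2 changes were 0.11 for miR-23a (standard error 0.12), 0.13 for miR-34c (0.09), -0.02 for miR-218 (0.12) and 3.7e-07 for miR-30c (0.22). All 4 overlapped between the groups, and of all 148, 12.8% were higher and 2.7% lower without overlap. miR-204 was detected on 3 arrays and not tested, and the other 6 were detected on none.

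Of the 9 cytokine-responsive miRNAs on the array, 7 were tested. In limma 0 of the 7 had an adjusted p under 0.05 in either direction, and 0.0% of all 148 did. With the study's own test 1 of the 7 did, miR-132, as it did by unadjusted p in limma, against 1.35% and 9.46% of all 148. The median log2 change of the 7 was 0.11, against 0.06 for all tested miRNAs. miR-132, known as a target of CREB, had a log2 change of 0.51 with a standard error of 0.07 (limma adjusted p = 0.0551), and its groups did not overlap. miR-146a, which NF-κB is known to induce, and miR-146b had log2 changes of -0.09 (standard error 0.18) and -0.08 (standard error 0.10). Their limma adjusted p were 0.869 and 0.734. miR-21 was at 0.15 (standard error 0.09), miR-125b-5p at 0.11 (standard error 0.09), miR-181b at 0.03 (standard error 0.09) and miR-223 at 0.40 (standard error 0.22), and all 4 overlapped between the groups. Thus 1 of the 7 was higher and 0 were lower without overlap, against 12.8% and 2.7% of all 148.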

How the data were processed

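Total RNA of 6 rTDSC samples was labelled with Cy3 and hybridised to Agilent rat miRNA arrays. The authors deposited the output of Agilent Feature Extraction 10.7.3.1 per array. In it the intensity of a spot is background-subtracted and not scaled between arrays, and the other columns used are the raw and background intensities, a total signal per miRNA, and calls of outliers and detection. The deposited matrix held identical intensities (largest difference 0). Here the spots of a probe were averaged without those flagged as outliers. Each array was scaled to its own 75th percentile, taken over 173 probes that were detected everywhere. Probe signals were added up per miRNA and converted to log2, with a floor at 1.87% of that percentile. Of the 677 miRNAs, 148 were tested, namely those called detected throughout the non-loading or the loading group, by limma 3.58.1 in R 4.3.3 with Benjamini-Hochberg adjustment, after a check on simulated data. The study's own test, Newman–Keuls, was an alternative, with the same adjustment added here. The miR-31 arms passed the filter on all 6 arrays. Other miRNAs named are the 4 nearest profiles of each arm, a list of Runx2-targeting and a list of cytokine-responsive miRNAs, markers of 6 cell types, and the arm pairs with the 3 largest and 3 smallest shifts in ratio. The members and lists were chosen with earlier results of these data known. Alternatives concerned background correction, scaling, the summary of probes, flagged spots, slide position and single arrays. The number of arrays limits the precision.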

Additional observations from a re-analysis of the deposited data

How the results depend on the processing

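The log2 change of miR-31 was above 0 under all 19 alternatives, from 0.042 to 0.21, and between 0.18 and 0.22 with an array left out. It moved by more than the spread between replicates with the 75th percentile over all probes (0.042), quantile normalization (0.084), normexp (0.13) and no scaling (0.14). That of miR-31* was above 0 under 18 of 19, with -0.36 under normexp and 0.18 under normexp with outlying background values replaced, and between 0.38 and 0.65 with an array left out. The change of the arm ratio was above 0 under 16 of 17, with -0.50 and 0.0025 in these 2 settings and 0.54 with the row blocked or within row 1. It was between 0.18 and 0.43 with an array left out. The cause was not tested. Some alternatives could not move these values. Scaling of a whole array cancels in the ratio, the deposited matrix was identical, and the replicate block was balanced. The 2 row settings gave the same value. The counts above 0 are thus not counts of independent checks.

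The number of miRNAs higher under loading with no overlap, 19 in the main setting, was 0 with normexp, 6 when nothing was scaled and 1 when all probes set the percentile. It was between 20 and 40 with an array left out, at 30 without loading replicate 1, 40 without loading replicate 2, 29 without non-loading replicate 1 and 39 without non-loading replicate 2, since fewer arrays overlap less often. The number past an adjusted p of 0.05, 0 in the main setting, was also 0 for each array left out. It was 2 with array quality weights, the brightest probe, a higher floor, the mean of log2 probe signals, outlier spots kept, a filter for detection on all 6 arrays, quantile normalization, eBayes with trend and robust, and the study's own test. Counts of groups without overlap have no value under array weights or blocks.

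The replicate numbers share only a number, as the deviations of same-numbered arrays correlated at -0.69, -0.47 and 0.11. A replicate block cannot move a mean difference in this balanced design. With it the log2 changes stayed at 0.20 for miR-31, 0.50 for miR-31* and 0.30 for the arm ratio. Under the same block 0 miRNAs passed an adjusted p of 0.05. Among the 4 probes of the arms, the dim miR-31* probe, with 42 of 60 spots well above background, is the reading most limited by signal over background.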
